A study of Homo sapiens with 29 samples.

Results

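Xenografts of COLO320DM, a human colorectal adenocarcinoma line with amplified MYC, were grown in mice, and polyA RNA was sequenced from tumors labelled 48 hr. The comparison described here is between 8 libraries labelled Helicon4neg at 30 mpk and 10 labelled vehicle, which are 18 of the 29 libraries of the study. The members are all 13373 genes of the 13492 in the table that passed a filter of at least 1 CPM (depth-normalised read counts, on the authors' scaling) in at least 5 libraries. The other groups were Helicon4 at 30 mpk (6 libraries) and at 100 mpk (5 libraries), and mpk is the dose unit as labelled. All groups carried the same tumor line. The series title names Helicon4's class, a peptide that acts on β-catenin and TCF. The labels give no sequence or structure for Helicon4neg and no account of how it differs from Helicon4. Host strain, sex and age are not given in the sources used here, and libraries of a group are told apart by replicate number alone, so p values measure the spread between libraries, which may be partly technical.

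In Wnt signaling, β-catenin that escapes its destruction complex enters the nucleus, binds TCF and LEF factors and switches on target genes. Several targets, among them AXIN2, NKD1, NOTUM, DKK1, DKK4, RNF43 and ZNRF3, encode proteins that damp the same pathway. Colorectal tumors commonly carry lesions that keep this pathway on. A control peptide commonly serves as a reference for what dosing alone does, and its own distance from vehicle is then part of the background of the experiment.

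Whole reads recovered from the values numbered 26.8 to 60.9 M per library in vehicle and 27 to 59.4 M in Helicon4neg. Helicon4neg replicate 2 stood apart. Ribosomal protein genes took 20.6% of its values against 10.9 to 13.1% in the other 7 Helicon4neg libraries and 11.1 to 17.6% in vehicle, and its length slope, the slope of log2 levels on log2 gene length, was -0.32 against -0.05 to 0.09 and -0.19 to 0.06. The main counts and many of the gene lists and named genes are therefore given with and without it. None of the 82 calls of named genes between Helicon4neg and vehicle was lost without it. Library titles carry codes of unstated meaning: vehicle 9 and 10 share SH7080 with Helicon4neg 1 to 5, the other 8 vehicle libraries have codes that no Helicon4neg library has, and Helicon4neg 6 to 8 have SH7081. Group and title code can be told apart only within SH7080, which sets 2 vehicle libraries against 5 Helicon4neg libraries, or against 4 without replicate 2. Among 9 measures of the libraries (depth, mitochondrial and ribosomal shares, share of the top 50 genes, length slope and 4 cell type marker means) none passed the test between the groups with all libraries (exact permutation tests, two-sided, smallest adjusted p = 0.401). Without replicate 2 the mean log2 level of the 13 listed fibroblast and matrix markers was 3.84 ± 0.08 (SD, n = 7) in Helicon4neg and 3.65 ± 0.11 (SD, n = 10) in vehicle (exact permutation test, adjusted p = 0.0213 over the 9). The median log2 difference of the 13 was 0.25 without replicate 2, 0.03 within SH7080 and 0.07 there without replicate 2. With all libraries 9 of the 13 had a difference above 0. The summed level of these markers ran from 649 to 816 CPM in Helicon4neg and from 578 to 805 CPM in vehicle, and 8 of 21 markers, DCN, LUM, POSTN and COL1A2 among them, had no row in the table. VIM was the largest part of these sums, with means of 388 CPM in Helicon4neg and 397 CPM in vehicle. Of 9 tumor epithelial markers 6 had a row (CDH1, CLDN3 and VIL1 had none), with sums of 3654 to 5105 CPM in Helicon4neg and 2285 to 4353 CPM in vehicle. CDX2 made up most of these sums, with means of 4109 and 3135 CPM, while KRT8 had means of 174 and 175 CPM and EPCAM of 27.7 and 27.9 CPM. In bulk tumor RNA, fewer cells of a type and less RNA per cell cannot be told apart. The notes name no mouse genome, so host reads may be counted under human genes.

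The first question was how far tumors given Helicon4neg differed from those given vehicle. The answer was many small differences and few large ones. Of the 13373 genes, 647 (4.84%) passed an adjusted p of 0.05 (limma on log2(CPM + 1), all 4 groups in 1 fit), 296 higher with Helicon4neg (2.21%) and 351 lower (2.62%). Only 43 of the higher and 17 of the lower genes differed by at least 1.5-fold on that scale, and 7 and 0 by at least 2-fold. The median log2 difference was 0.41 among the genes that rose and -0.36 among those that fell. All libraries of one group lay above all of the other for 68 genes (0.508% of those tested), 67 of them among the 647, and without Helicon4neg replicate 2 for 1.67%. Without Helicon4neg replicate 2 the test called 2595 genes (19.4%), 1306 higher (9.77%) and 1289 lower (9.64%), and these include all 647. Without Helicon4neg replicate 4 it called 393. With TMM factors in place of the authors' scaling the split was 342 higher and 247 lower. Within SH7080 no gene passed with all 5 Helicon4neg libraries (limma adjusted p, 1064 genes at an unadjusted p under 0.05), where standard errors were at the median 2.03 times as large. Without replicate 2 the same 2 vehicle and 4 Helicon4neg libraries called 716 genes (5.35%), 462 higher (3.45%) and 254 lower (1.9%), 165 of them among the 647 and in the same direction. Of the named genes, 82 passed with all libraries and 38 within SH7080 without replicate 2. Named genes that did not pass there include FOS, JUN, PVT1, CASC11, HSPA5 and DDIT3 (limma adjusted p of 0.127 to 0.343). The median differences of the 647 within SH7080 were 0.34 for those called higher and -0.30 for those called lower, and 0.36 and -0.33 without replicate 2; these libraries also entered the fit that chose the genes. The 1948 genes called only without replicate 2 had medians of 0.35 and -0.31 in that fit, and of 0.09 and -0.13 within SH7080 without replicate 2, and 41.43% of them had the same sign within SH7080 with it. A fit that blocked on title code left 2 genes, TH and ZNF610, the latter named because only these 2 passed.

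The second question was whether genes of the pathway that Helicon4 acts on also moved with Helicon4neg. Of 14 core genes, NOTUM rose and the other 13 did not pass. NOTUM, which encodes a secreted hydrolase that inactivates Wnt ligands (chr17:81952507-81961840, minus strand, GRCh38, GENCODE 29, as for the gene positions that follow), ranged from 273 to 476 CPM in vehicle (median 381) and from 405 to 680 CPM in Helicon4neg (median 556). Its highest value was in replicate 2, and the 2 groups overlap. The log2 difference was 0.52 ± 0.13 (SE; limma adjusted p = 0.014), 0.47 without replicate 2 (0.011), 0.84 within SH7080 and 0.79 there without replicate 2 (0.0050). The call was lost with the mean level of host-type markers as a covariate (limma adjusted p = 0.0913). It was also lost with replicate number as a block (limma adjusted p = 0.0592) and with title code as a block (0.0506).

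**Figure D1:**
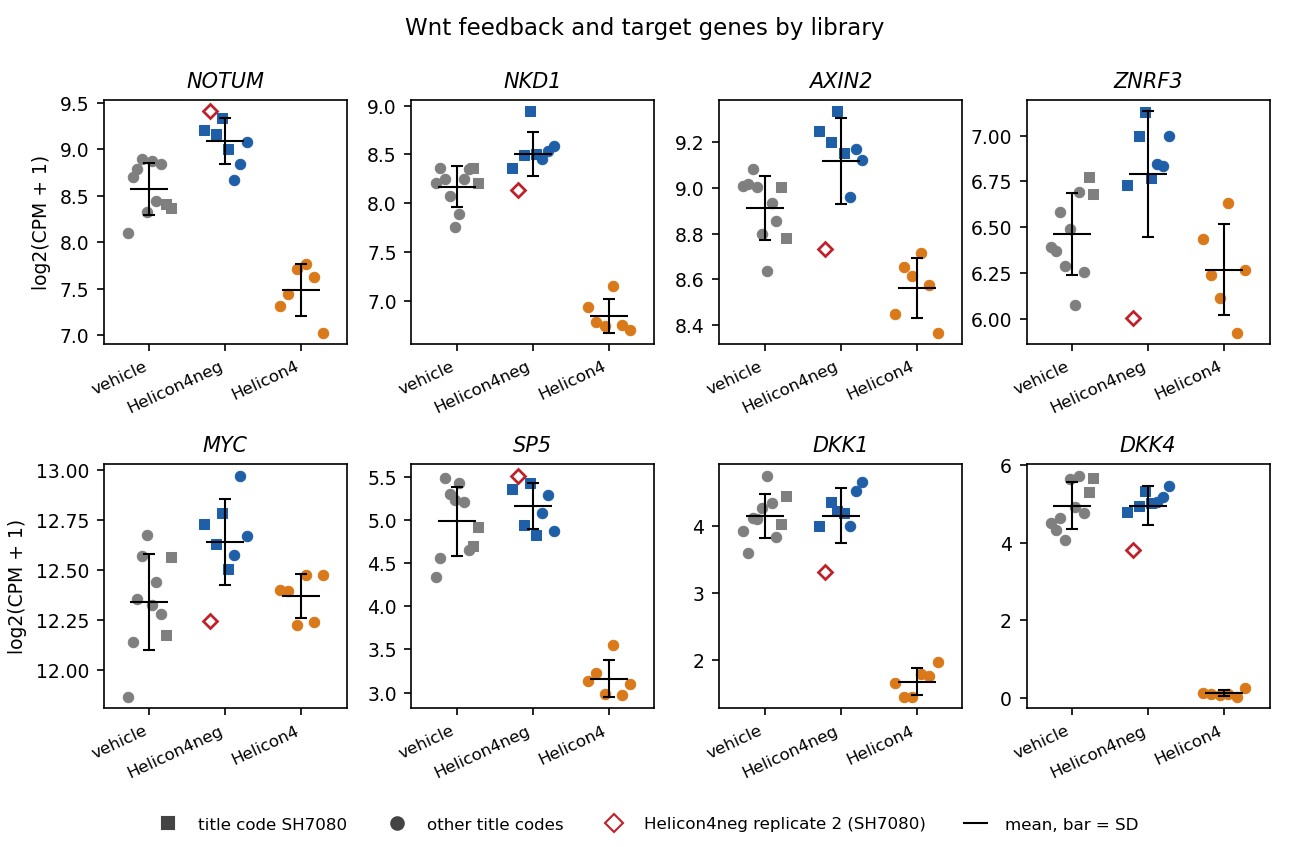
Level of 8 Wnt feedback and target genes, as log2(CPM + 1), in each library of vehicle (n = 10), Helicon4neg at 30 mpk (n = 8) and Helicon4 at 30 mpk (n = 6); squares are libraries of title code SH7080, the open diamond is Helicon4neg replicate 2, and bars are the mean and SD. Vehicle and Helicon4neg overlap for all 8 genes, while Helicon4 lies below both for NOTUM, NKD1, SP5, DKK1 and DKK4.

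NKD1, which binds Dishevelled and damps the pathway, was at 214 to 328 CPM in vehicle (median 299) and 281 to 492 CPM in Helicon4neg (median 362). Its log2 difference of 0.33 ± 0.11 missed the threshold (limma adjusted p = 0.064) and passed without replicate 2 (0.39, adjusted p = 0.012). AXIN2, a scaffold of the destruction complex, was at 397 to 541 CPM in vehicle (median 500) and 425 to 646 CPM in Helicon4neg (median 572), a difference of 0.20 ± 0.08 (limma adjusted p = 0.15; 0.26 and 0.018 without replicate 2). For both genes replicate 2 was the lowest Helicon4neg library. The secreted inhibitor DKK4 had medians of 27.5 CPM in vehicle (15.8 to 51.9) and 31.9 CPM in Helicon4neg (13.0 to 43.1), and its difference of -0.01 had a 95% interval of -0.42 to 0.40. DKK1, of the same family, had medians of 16.3 and 17.4 CPM and a difference of 0.01 (95% interval -0.30 to 0.32). SP5, a transcription factor induced by β-catenin, had medians of 32.5 and 35.4 CPM (0.18, 95% interval -0.11 to 0.47). LEF1, TCF7, CCND1, LGR5 and ASCL2 had differences of -0.06 to 0.12, and RNF43, ZNRF3 and MYC of 0.21, 0.33 and 0.30, none past the threshold (limma adjusted p of 0.078 or more). Without replicate 2, in which RNF43, ZNRF3 and MYC were at or near the lowest Helicon4neg level, 6 of the 14 were called higher and 0 lower (NOTUM, NKD1, AXIN2, RNF43, ZNRF3 and MYC), beside 9.77% of all genes. The median of the 14 was 0.15 with and without replicate 2, 0.04 within SH7080 and 0.18 there without replicate 2. In that last fit ASCL2, AXIN2 and NKD1 differed by 0.39, 0.34 and 0.29, and DKK4 and CCND1 by -0.46 and -0.33. None of these 5 passed there (limma adjusted p of 0.058 to 0.19). Among 29 tested Wnt targets and feedback genes, the 14 included, 1 was called higher and 0 lower, beside 2.21% and 2.62% of all genes, with a median of 0.08 against 0.00 over all genes tested. Without replicate 2, 9 were called higher and 0 lower, beside 9.77% and 9.64%, with a median of 0.15, and within SH7080 the median was -0.04, or 0.03 without replicate 2.

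Helicon4 at the same dose and time gives the scale for these values; it shares the Helicon4neg libraries with the comparison above, and only this 1 pair of compounds was set side by side. DKK4 was at 31.9 CPM at the median with Helicon4neg and at 0.0860 CPM with Helicon4, a log2 difference of -4.82 ± 0.23 (limma adjusted p = 9.7e-16). The corresponding differences were -2.47 for DKK1, -2 for SP5, -1.66 for NKD1, -1.61 for NOTUM and -0.55 for AXIN2. In all, 0 of the 14 core genes were higher and 8 lower with Helicon4 than with Helicon4neg, beside 7.78% of all genes called higher, 7.31% lower and 15.1% in either direction. No code other than SH7081, with 3 Helicon4neg libraries and 1 of Helicon4, holds both compounds. Blocking on title code left 184 genes in place of 2018, and the calls of AXIN2 (limma adjusted p = 0.164), ZNRF3 (0.845) and ASCL2 (0.993) among the core genes were lost; that of ASCL2 was also lost without Helicon4neg replicate 2 (0.0592).

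Immediate early genes, whose transcription follows many stimuli quickly and fades again, were higher with Helicon4neg in part of the list. Of 27 tested genes of the list, 7 rose and 0 fell, beside 2.21% and 2.62% of all genes, with a median log2 difference of 0.18 against 0.00 over all genes. Without replicate 2 the counts were 11 and 1, beside 9.77% and 9.64%, and the median 0.29, and within SH7080 the median was 0.22, or 0.24 without replicate 2. FOS, a subunit of the transcription factor AP-1 (chr14:75278774-75282230, plus strand), was at 2.5 to 16.5 CPM in vehicle (median 4.67) and 2.81 to 45.6 CPM in Helicon4neg (median 22.8). Helicon4neg replicate 2 had the lowest of the 8 values, the other 7 ran from 10.3 to 45.6 CPM, and only vehicle 4 reached into their range. The log2 difference was 1.60 ± 0.35 (limma adjusted p = 0.0064) and 1.94 without replicate 2; within SH7080 it was 0.89, and 1.37 without replicate 2. FOSB, another AP-1 subunit, was at 2.52 to 5.59 CPM in vehicle (median 3.13) and 4.47 to 11.3 CPM in Helicon4neg (median 8.66). It rose by 1.03 ± 0.18 (limma adjusted p = 0.00069), 1.12 without replicate 2 and 1.07 within SH7080 without that library (adjusted p = 0.030). KLF4, a transcription factor of growth arrest and gut differentiation, was near 1 CPM in vehicle (0.368 to 1.77) and at 0.701 to 3.97 CPM in Helicon4neg, where replicate 2 was lowest and the other 7 lay above all vehicle libraries. Its log2 difference of 0.75 ± 0.14 (limma adjusted p = 0.0020) understates the fold at such low levels.

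The other 4 that rose were JUN and, named after their values were seen, DUSP1, JUND and CTGF. DUSP1 encodes a phosphatase that switches off MAP kinases. It was at 7.5 to 15.1 CPM in vehicle (median 9.34) and 7.95 to 22 CPM in Helicon4neg (median 15.8), with replicate 2 lowest, and differed by 0.60 ± 0.14 (limma adjusted p = 0.0094; 0.71 without replicate 2). JUND, an AP-1 subunit, ranged from 64.7 to 148 CPM in vehicle (median 89.8) and from 104 to 355 CPM in Helicon4neg (median 155). Here replicate 2 was the highest library, and the log2 difference of 0.74 ± 0.18 (limma adjusted p = 0.013) was 0.57 without it. JUN, the partner of FOS in AP-1, was at 60.9 to 176 CPM in vehicle (median 86.3) and 45.4 to 282 CPM in Helicon4neg (median 206), with replicate 2 lowest; it differed by 0.92 ± 0.25 (limma adjusted p = 0.029), 1.18 without replicate 2, 0.46 within SH7080 and 0.86 there without replicate 2. The call of JUN was lost without any 1 of 10 libraries, Helicon4neg 1, 3, 4, 6, 7 or 8 or vehicle 2, 5, 6 or 7 (limma adjusted p of 0.0503 to 0.0851). CTGF, a matrix-associated target of YAP, differed by 0.47 ± 0.13 (limma adjusted p = 0.041), and its call was lost without any 1 of 12 libraries, Helicon4neg 1, 3, 4, 6, 7 or 8 or vehicle 2, 3, 5, 6, 7 or 9 (0.0530 to 0.0962). Members that did not pass include EGR1 (0.77, limma adjusted p = 0.21), ATF3 (0.35), JUNB (0.00), IER2 (-0.08) and FOSL1 (0.01).

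**Figure D2:**
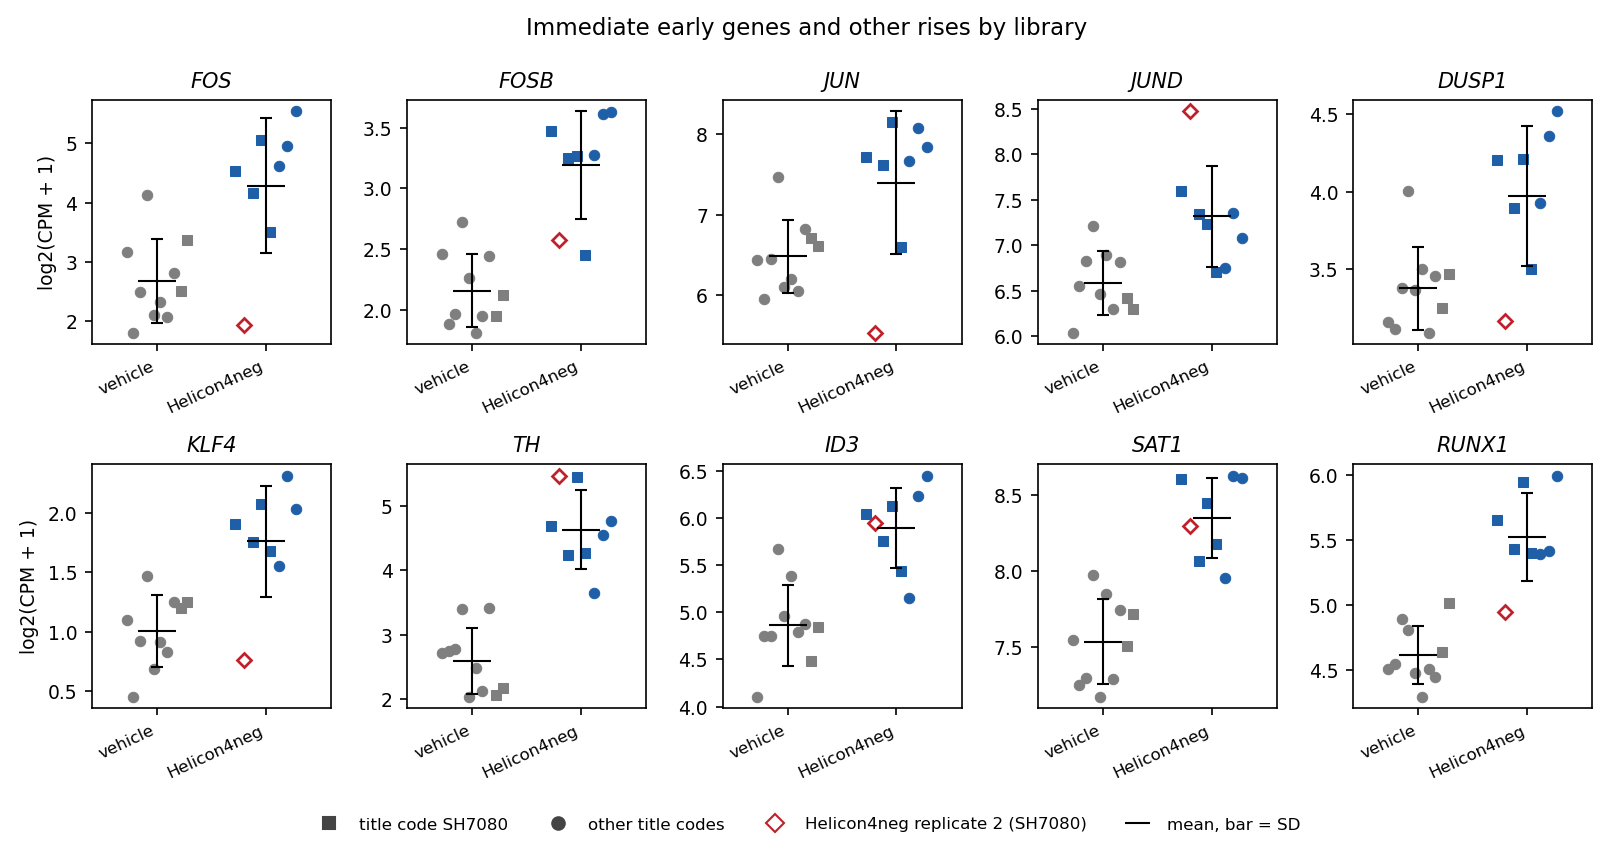
Level of 6 immediate early genes and 4 other genes that rose, as log2(CPM + 1), in each vehicle (n = 10) and Helicon4neg (n = 8) library; squares are title code SH7080, the open diamond is Helicon4neg replicate 2, and bars are the mean and SD. Replicate 2 is the lowest Helicon4neg library for FOS, JUN, DUSP1, KLF4 and RUNX1 and the highest for JUND and TH, and for TH all Helicon4neg libraries lie above all vehicle libraries.

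Elements such as the cAMP response element and the E-box are among the sites known to switch on immediate early and clock genes. Upstream sequences of some genes of these lists that rose are therefore shown. They are the 250 bases before the RefSeq start (GRCh38.p14), 5′ to 3′ on the gene's strand; TEF and PER3 have 2 starts in the table, of which 1 is shown. Capitals mark TGACG, the core of a cAMP response element, in FOS (chr14:75278578-75278827, plus strand); the full element TGACGTCA and the E-box CACGTG in DUSP1 (chr5:172771196-172771445, minus strand); the E-box in PER1 (chr17:8152405-8152654, minus strand) and TEF (chr22:41367205-41367454, plus strand); and the D-box TTATGTAA in PER3 (chr1:7784041-7784290, plus strand).
FOS: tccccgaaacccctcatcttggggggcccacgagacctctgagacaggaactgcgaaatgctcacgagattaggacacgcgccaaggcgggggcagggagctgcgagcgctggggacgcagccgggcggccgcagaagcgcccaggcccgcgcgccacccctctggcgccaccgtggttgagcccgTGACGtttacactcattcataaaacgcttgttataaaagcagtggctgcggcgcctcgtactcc
DUSP1: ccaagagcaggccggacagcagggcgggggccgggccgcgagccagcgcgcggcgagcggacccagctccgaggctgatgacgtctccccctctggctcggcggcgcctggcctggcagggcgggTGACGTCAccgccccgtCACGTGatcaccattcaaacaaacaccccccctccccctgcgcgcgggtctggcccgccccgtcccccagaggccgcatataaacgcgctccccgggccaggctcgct
PER1: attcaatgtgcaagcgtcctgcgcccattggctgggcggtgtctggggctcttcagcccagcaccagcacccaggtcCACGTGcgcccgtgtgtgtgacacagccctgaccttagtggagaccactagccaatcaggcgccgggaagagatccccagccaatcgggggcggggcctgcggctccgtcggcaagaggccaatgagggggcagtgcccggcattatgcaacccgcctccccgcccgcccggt
TEF: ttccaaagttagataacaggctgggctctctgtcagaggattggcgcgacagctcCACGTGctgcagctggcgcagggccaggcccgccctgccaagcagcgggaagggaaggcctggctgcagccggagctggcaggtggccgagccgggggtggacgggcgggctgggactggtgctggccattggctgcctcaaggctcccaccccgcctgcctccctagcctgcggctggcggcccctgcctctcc
PER3: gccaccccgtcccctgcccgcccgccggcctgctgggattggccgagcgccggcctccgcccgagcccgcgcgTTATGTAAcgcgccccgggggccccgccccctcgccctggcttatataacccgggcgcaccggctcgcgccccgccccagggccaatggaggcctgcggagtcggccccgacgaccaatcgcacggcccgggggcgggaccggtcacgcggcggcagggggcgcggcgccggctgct
In windows of 250 bases before to 50 after the start, searched on both strands, TGACG was present in 24.6% of all 35116 RefSeq promoters (7761 of 27305 genes), TGACGTCA in 1.85% (614 genes), CACGTG in 7.26% (2396 genes) and TTATGTAA in 0.886% (308 genes); TGACG lies within TGACGTCA. Of the 27 immediate early genes 21 had a promoter in the table. TGACG was present in 12 of those 21 genes, risen FOS, FOSB, JUN, JUND, DUSP1 and KLF4 among them but also EGR1, JUNB and IER2, which did not pass, and TGACGTCA was present in 2, DUSP1 and JUND. TGACG was also present in 13 of 19 matched heat shock genes, HSP90AA1, DNAJA1 and HSPD1 among them, which fell. Of 21 clock genes 17 had a promoter, and CACGTG was present in 6 of these. They were PER1 and TEF, which rose, and BHLHE40, CIART, NR1D2 and TIMELESS, which did not pass, while TTATGTAA was present in PER3 and NR1D2. Searches across the lists gave CACGTG in 4 immediate early genes (DUSP1, DUSP2, KLF4 and KLF6) and TGACG in 7 clock genes, PER2 and HLF among them. Of the immediate early genes, only FOSL2 had the AP-1 site TGANTCA. Only EGR1 and SRF had CArG, which is CC and GG around a run of A or T. None of these 3 genes passed, and the 2 motifs were in 7.71% and 1.29% of all promoters. A match is a stretch of letters, and binding was not measured.

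Some circadian clock genes and both cold-inducible RNA-binding protein genes, lists added after their values were seen, also rose. RBM3 encodes an RNA-binding protein induced by mild cold and had the smallest adjusted p of all genes (chrX:48574449-48579066, plus strand). It was at 318 to 486 CPM in vehicle (median 393) and 537 to 726 CPM in Helicon4neg (median 610), so that every Helicon4neg library, replicate 2 included, lay above every vehicle library. Its log2 difference was 0.63 ± 0.07 (limma adjusted p = 9.2e-06), 0.63 without replicate 2, 0.56 within SH7080 and 0.55 there without replicate 2 (adjusted p = 0.015). CIRBP, the other cold-inducible member, was at 189 to 269 CPM in vehicle (median 242) and 249 to 563 CPM in Helicon4neg (median 317), highest in replicate 2. It rose by 0.49 ± 0.12 (limma adjusted p = 0.012; 0.38 without replicate 2).

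Of 21 tested clock genes 6 rose and 0 fell, beside 2.21% and 2.62% of all genes, with a median of 0.16. The counts were 7 and 0 without replicate 2, beside 9.77% and 9.64%, with a median of 0.13, and within SH7080 the median was 0.17, or 0.07 without replicate 2. TEF, a PAR bZIP factor that drives D-box genes, was at 12 to 17.1 CPM in vehicle (median 14.5) and 17.1 to 24.9 CPM in Helicon4neg (median 22.2), without overlap, and rose by 0.57 ± 0.08 (limma adjusted p = 8.2e-05). The period genes encode the repressors of the clock's feedback loop. PER1 was at 25 to 41.6 CPM in vehicle (median 29.1) and 39 to 53 CPM in Helicon4neg (median 44.2), with 1 vehicle library inside the Helicon4neg range, and rose by 0.56 ± 0.10 (limma adjusted p = 0.00071; 0.71 within SH7080). PER2 was at 8.11 to 11.9 CPM in vehicle (median 9.73) and 9.63 to 18.9 CPM in Helicon4neg (median 15.7), and rose by 0.56 ± 0.09 (limma adjusted p = 0.00067; 0.65 without replicate 2). PER3 was at 6.20 to 11.3 CPM in vehicle (median 9.65) and 6.55 to 21.5 CPM in Helicon4neg (median 15.8), and rose by 0.69 ± 0.15 (limma adjusted p = 0.0060; 0.85 without replicate 2). In both PER2 and PER3 replicate 2 was the only Helicon4neg library within the vehicle range. NR1D1, which encodes the repressor REV-ERBα, rose by 0.63 ± 0.15 (limma adjusted p = 0.015) and HLF, another PAR bZIP factor, by 0.34 ± 0.09 (0.017). The differences of PER2, PER3, NR1D1, HLF and TEF within SH7080 were 0.30, 0.36, 0.36, 0.17 and 0.59. There they were 0.43, 0.61, 0.53, 0.25 and 0.55 without replicate 2. With the host-type markers as a covariate the calls of NR1D1 (limma adjusted p = 0.115) and PER3 (0.057) were lost. The activators CLOCK (0.02) and ARNTL (-0.21) and the repressors CRY1 (-0.03) and CRY2 (0.27) did not pass. The labels give no hour of dosing or collection, so whether it moves with group was not tested.

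**Figure D3:**
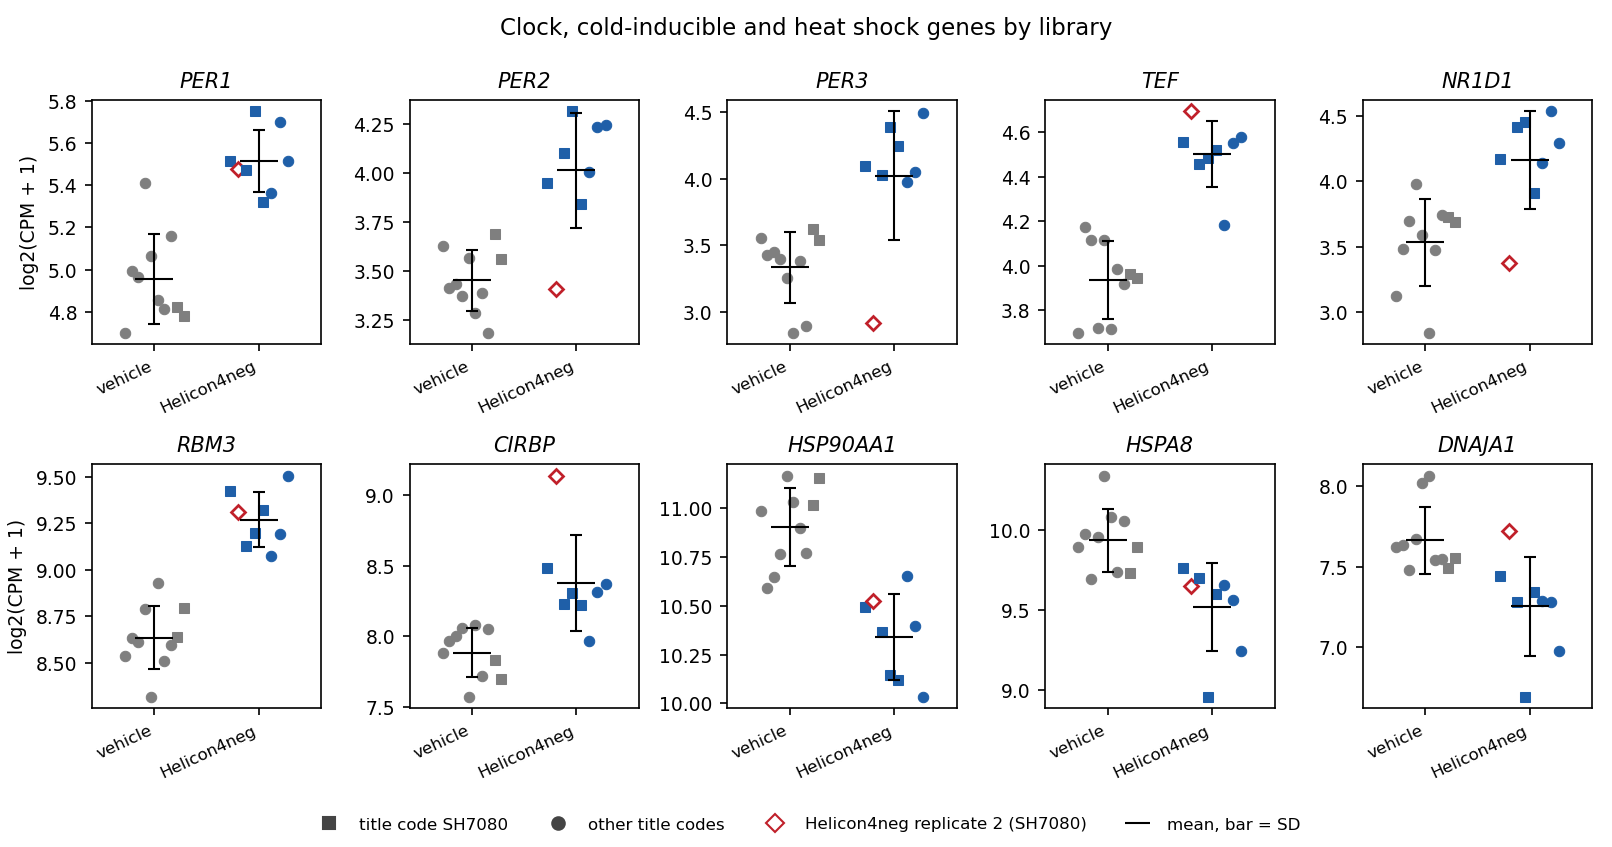
Level of 5 clock genes, 2 cold-inducible and 3 heat shock genes, as log2(CPM + 1), in each vehicle (n = 10) and Helicon4neg (n = 8) library; squares are title code SH7080, the open diamond is Helicon4neg replicate 2, and bars are the mean and SD. The groups do not overlap for TEF and RBM3, and replicate 2 lies among the vehicle libraries for PER2, PER3 and NR1D1.

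Heat shock genes encode chaperones that fold and hold proteins, in the cytosol or, as for HSPD1, in mitochondria. Of 21 tested, 0 rose and 4 fell, beside 2.21% and 2.62% of all genes, with a median of -0.12. Leaving out replicate 2 gave counts of 0 and 8, beside 9.77% and 9.64%, and a median of -0.14, and within SH7080 the median was -0.23, or -0.15 without replicate 2. HSP90AA1, the inducible HSP90, was at 1543 to 2297 CPM in vehicle (median 1966) and 1047 to 1609.6 CPM in Helicon4neg (median 1333), and its log2 difference was -0.56 ± 0.09 (limma adjusted p = 0.00067). Only 1 Helicon4neg library, replicate 6, reached the vehicle range, and the difference was -0.75 within SH7080 and -0.80 there without replicate 2 (adjusted p = 0.0061). HSPA8, the constitutive HSP70, fell by 0.42 on the log2 scale (limma adjusted p = 0.017), DNAJA1, an HSP40 co-chaperone, by 0.41 (0.017) and HSPD1, the mitochondrial HSP60, by 0.29 (0.036). With host-type markers as a covariate the calls of HSPA8 (limma adjusted p = 0.0986), DNAJA1 (0.146) and HSPD1 (0.192) were lost. That of DNAJA1 was also lost without Helicon4neg 4 (0.05005). The call of HSPD1 was lost without any 1 of 10 libraries, Helicon4neg 3 to 8 or vehicle 5, 6, 7 or 10 (0.0519 to 0.101). PPID, a cyclophilin that works with HSP90, fell by 0.41 on the log2 scale (limma adjusted p = 0.00043). The stress-induced HSPA1A (0.46), HSPA1B (0.47), DNAJB1 (0.55) and HSPH1 (-0.34) varied widely between libraries and did not pass.

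In the endoplasmic reticulum list 3 of 20 genes rose and 0 fell, beside 2.21% and 2.62% of all genes, with a median of 0.09. Without replicate 2, 5 were called higher and 1 lower, beside 9.77% and 9.64%, with a median of 0.11. Within SH7080 the median was 0.06, or 0.04 without replicate 2. HSPA5, the main chaperone of that compartment, was at 781 to 1007 CPM in vehicle (median 913) and 1002 to 1482 CPM in Helicon4neg (median 1183), and rose by 0.40 ± 0.07 (limma adjusted p = 0.0015). Its difference was 0.26 within SH7080, and also 0.26 there without replicate 2 (limma adjusted p = 0.175). CREB3L2, a membrane-bound stress transcription factor, rose by 0.48 ± 0.10 (0.0060), and HERPUD1, which acts in degradation of misfolded proteins, by 0.29 ± 0.07 (0.018). Both calls were lost with host-type markers as a covariate (limma adjusted p of 0.0651 and 0.0556), and their differences within SH7080 were 0.20 and 0.07. DDIT3, the stress factor CHOP, rose by 0.76 ± 0.18 (limma adjusted p = 0.013) while PSPH, the last enzyme of serine synthesis, fell by 0.42 on the log2 scale (0.0017). Both belong to an ATF4 response list of 26 genes in which no other passed with all libraries, ASNS (-0.27) included. The share of all genes called was 4.84%. Leaving replicate 2 out gave 2 of the 26 higher and 5 lower, beside 9.77% and 9.64%, with a median of -0.10. The median of the 26 within SH7080 was -0.08, or -0.10 without replicate 2.

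The largest rise of any named gene was that of TH, the rate-limiting enzyme of catecholamine synthesis (chr11:2163929-2171877, minus strand). It was at 3.09 to 9.64 CPM in vehicle (median 5.08) and 11.5 to 43.3 CPM in Helicon4neg (median 23.5). All 8 Helicon4neg libraries lay above all 10 vehicle libraries, with replicates 2 and 4 highest. The log2 difference was 2.04 ± 0.28 (limma adjusted p = 6.3e-05), 1.92 without replicate 2, 2.7 within SH7080 and 2.54 there without replicate 2 (adjusted p = 0.026), and it also passed when title code was a block (2.7, adjusted p = 0.047). MAOA, which breaks down amines, differed by 0.41 ± 0.10 (limma adjusted p = 0.016) but by 0.08 within SH7080, and HDC, the histamine-forming enzyme, did not pass (0.30; 0.43 without replicate 2). Of 7 tested amine enzymes, a list added after its values were seen, 2 rose and 0 fell, beside 2.21% and 2.62% of all genes, and without replicate 2 the counts were 4 and 0, beside 9.77% and 9.64%.

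Further large rises were in genes of other functions. ID3, an inhibitor of helix-loop-helix factors, was at 16.2 to 49.8 CPM in vehicle (median 27.2) and 34.6 to 86.6 CPM in Helicon4neg (median 62.7), and rose by 1.03 ± 0.17 (limma adjusted p = 0.00053; 1.20 within SH7080). SAT1, the enzyme that acetylates polyamines for export, was at 143 to 250 CPM in vehicle (median 183) and 247 to 395 CPM in Helicon4neg (median 331), and rose by 0.82 ± 0.11 (limma adjusted p = 6.3e-05; 0.71 within SH7080). RUNX1, a transcription factor, was at 18.6 to 31.4 CPM in vehicle (median 22.1) and 29.8 to 62.9 CPM in Helicon4neg (median 42.0), lowest in replicate 2, and rose by 0.91 ± 0.12 (limma adjusted p = 5.8e-05; 0.65 within SH7080). TNFRSF13C, which encodes the BAFF receptor, rose by 1.04 ± 0.21 (limma adjusted p = 0.0038; 1.33 within SH7080), and SDCBP2, which encodes syntenin-2, by 0.87 ± 0.16 (0.0013; 1.00). SGSH, a lysosomal sulfatase of heparan sulfate breakdown, was at 38.3 to 50.8 CPM in vehicle (median 45.1) and 59.1 to 83.7 CPM in Helicon4neg (median 65.7), without overlap, and rose by 0.59 ± 0.08 (limma adjusted p = 5.1e-05; 0.72 within SH7080). DNM2, the dynamin that pinches off endocytic vesicles, rose by 0.38 ± 0.07, also without overlap (limma adjusted p = 0.00091). Of the 31 lysosomal and 28 endocytic genes of the 2 lists, only GAA and DNM2 passed, beside 4.84% of all genes, and SGSH is on neither list. Leaving replicate 2 out gave 2 lysosomal genes higher and 2 lower, and 1 endocytic gene higher and 3 lower, beside 9.77% and 9.64%.

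The POTE ankyrin family, primate-specific genes with near-identical copies between which reads could be split, was added after its values were seen. All 6 tested members were called higher, with and without replicate 2, beside 2.21% and 9.77% of all genes. POTEF was at 5.07 to 19 CPM in vehicle (median 9.01) and 12.7 to 41.3 CPM in Helicon4neg (median 28.7), a log2 difference of 1.19 ± 0.26 (limma adjusted p = 0.0065). POTEE differed by 1.13, POTEI by 0.98, POTEJ by 0.93, POTEM by 0.55 and POTEG by 0.54. Within SH7080 POTEF, POTEE, POTEI and POTEJ differed by 0.23, 0.23, 0.11 and 0.04, and by 0.41, 0.36, 0.29 and 0.13 without replicate 2, while POTEG and POTEM differed by 0.44 and 0.43, and by 0.59 (limma adjusted p = 0.040) and 0.54 (0.0499) without replicate 2. The host-type covariate also ended the calls of POTEI (limma adjusted p = 0.0607) and POTEG (0.0583).

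COLO320DM carries extra copies of the region around MYC. Of 8 tested genes on a list of MYC amplicon genes, CDX2 included, 4 rose and 0 fell, beside 2.21% and 2.62% of all genes, with a median of 0.39. Without replicate 2 the counts were 6 and 2, beside 9.77% and 9.64%. PVT1, a long noncoding RNA gene next to MYC, was at 518 to 777 CPM in vehicle (median 590) and 808 to 1179 CPM in Helicon4neg (median 947), without overlap, and rose by 0.68 ± 0.09 (limma adjusted p = 5.1e-05; 0.40 within SH7080). CASC11, another noncoding neighbor of MYC, was at 35.4 to 48.4 CPM in vehicle (median 40.9) and 49.1 to 67.9 CPM in Helicon4neg (median 59.2), again without overlap, and rose by 0.51 ± 0.07 (limma adjusted p = 6.3e-05; 0.36 within SH7080). FAM84B differed by 0.62 ± 0.16 (limma adjusted p = 0.020) and by 0.00 within SH7080, and CDX2, the intestinal homeobox factor, by 0.40 ± 0.11 (0.026). The call of FAM84B was lost without Helicon4neg 4 or 8 (limma adjusted p of 0.0559 and 0.0534) and with the host-type covariate (0.153). That of CDX2 was lost without Helicon4neg 4 or 7 (limma adjusted p of 0.0615 and 0.0615), with TMM factors (0.0679), with the host-type covariate (0.103) and in a fit of only the compared groups (0.0596). MYC itself was at 3727 to 6534 CPM in vehicle (median 5183) and 4845 to 8037 CPM in Helicon4neg (median 6432) and did not pass (0.30, limma adjusted p = 0.078; 0.36 and 0.011 without replicate 2).

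The falls were smaller, and no named gene fell 2-fold. SERPINI1, which encodes the protease inhibitor neuroserpin, was at 5.16 to 10.5 CPM in vehicle (median 7.49) and 3.58 to 4.69 CPM in Helicon4neg (median 4.23), without overlap, a log2 difference of -0.73 ± 0.12 (limma adjusted p = 0.00044; -0.71 within SH7080). NUDT9, an ADP-ribose pyrophosphatase, was at 40.7 to 50.6 CPM in vehicle (median 46.7) and 33.5 to 37.6 CPM in Helicon4neg (median 34.9), without overlap, a difference of -0.37 ± 0.06 (limma adjusted p = 0.00023). NTAN1, an amidase of the N-degron pathway, C12orf75, the antisense gene UBAC2-AS1, LRP11 and ZNF239 also had groups without overlap, with differences of -0.51, -0.46, -0.51, -0.60 and -0.62. ZNF610, which passed with blocking on title code (-0.97, limma adjusted p = 0.0059), was at 2.96 to 4.71 CPM in vehicle (median 3.15) and 1.26 to 2.92 CPM in Helicon4neg (median 1.83). PIR, an iron-binding nuclear protein, was at 31.1 to 52.8 CPM in vehicle (median 37.5) and 19.4 to 41.6 CPM in Helicon4neg (median 23.4), highest in replicate 2, and fell by 0.64 on the log2 scale (limma adjusted p = 0.0021; 0.74 without replicate 2). STYXL1, a pseudophosphatase, and LMAN2L, a lectin of the secretory pathway, behaved likewise in replicate 2 and differed by -0.59 and -0.46. INHBE, an activin subunit (-0.70), MAMDC4 (-0.76; -0.12 within SH7080), TRMT1L (-0.58) and the protease FAM111B (-0.57) complete the larger falls. The strand setting of the counting is not given, so UBAC2-AS1 cannot be told apart from its partner on the other strand.

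With all libraries in the fit, the shares of cell division and interferon genes called were near those of all genes. POLA1, the catalytic subunit of DNA polymerase α, was at 56.2 to 90.0 CPM in vehicle (median 76.5) and 46.7 to 70.1 CPM in Helicon4neg (median 54.0), and fell by 0.43 on the log2 scale (limma adjusted p = 0.0049). It was the only 1 of 32 S-phase genes that passed, beside 2.62% of all genes called lower, and the median was -0.15. Without replicate 2, 11 of the 32 fell, beside 9.64%. In the interferon response list 0 of 30 rose and 1 fell, IFIT1, with a median of -0.20, also -0.20 within SH7080 without replicate 2. Only 1 of the 30 had a difference above 0, against 6764 of all 13373 genes, and without replicate 2, 3 fell, beside 9.64%. Of 28 mitotic genes 1 fell, HMMR, a spindle-associated protein, with a median of -0.08. No member passed among 79 cytosolic ribosomal protein genes, 75 nuclear genes of oxidative phosphorylation, 13 mitochondrial transcripts, 23 hypoxia and glycolysis genes or 16 of the BCL2 family (limma), beside 4.84% of all genes.

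Several lists changed with replicate 2. Without it 10 ribosomal protein genes, 31 of 76 mitochondrial ribosomal protein genes, 24 genes of oxidative phosphorylation and 13 of 31 proteasome genes were called lower, beside 9.64% of all genes, and 16 of 34 chromatin modifiers with long transcripts were called higher, beside 9.77%. With all libraries the counts were 0, 1 (MRPL53), 0 and 1 (PSMD14) lower and 3 higher, SRCAP (0.60), CHD2 (0.44) and EP400 (0.39). Within SH7080 without replicate 2 the medians of these 5 lists were -0.06, -0.01, 0.05, 0.02 and 0.05, against -0.22, -0.22, -0.25, -0.19 and 0.33 over all title codes without that library. The median gene lengths of these lists were 2982, 2501.5, 2475, 4490.0 and 15201 bases. Across deciles of gene length, the median difference without replicate 2 ran from -0.14 in the shortest to 0.17 in the longest genes, and within SH7080 without replicate 2 from 0.07 to -0.02. The genes called higher without replicate 2 had a median length of 6979.5 bases and those called lower 3421 bases, against 4933 bases for all genes; with all libraries these were 5654 and 3757 bases. With each library's length slope as a covariate 2383 genes (17.8%) passed, all 647 among them, with median lengths of 5038 and 4572 bases. The mean length slope was 0.04 ± 0.04 (SD, n = 7) in Helicon4neg without replicate 2 and -0.04 ± 0.08 (SD, n = 10) in vehicle (exact permutation test, adjusted p = 0.132), and its part in these calls was not tested beyond that covariate.

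**Figure D4:**
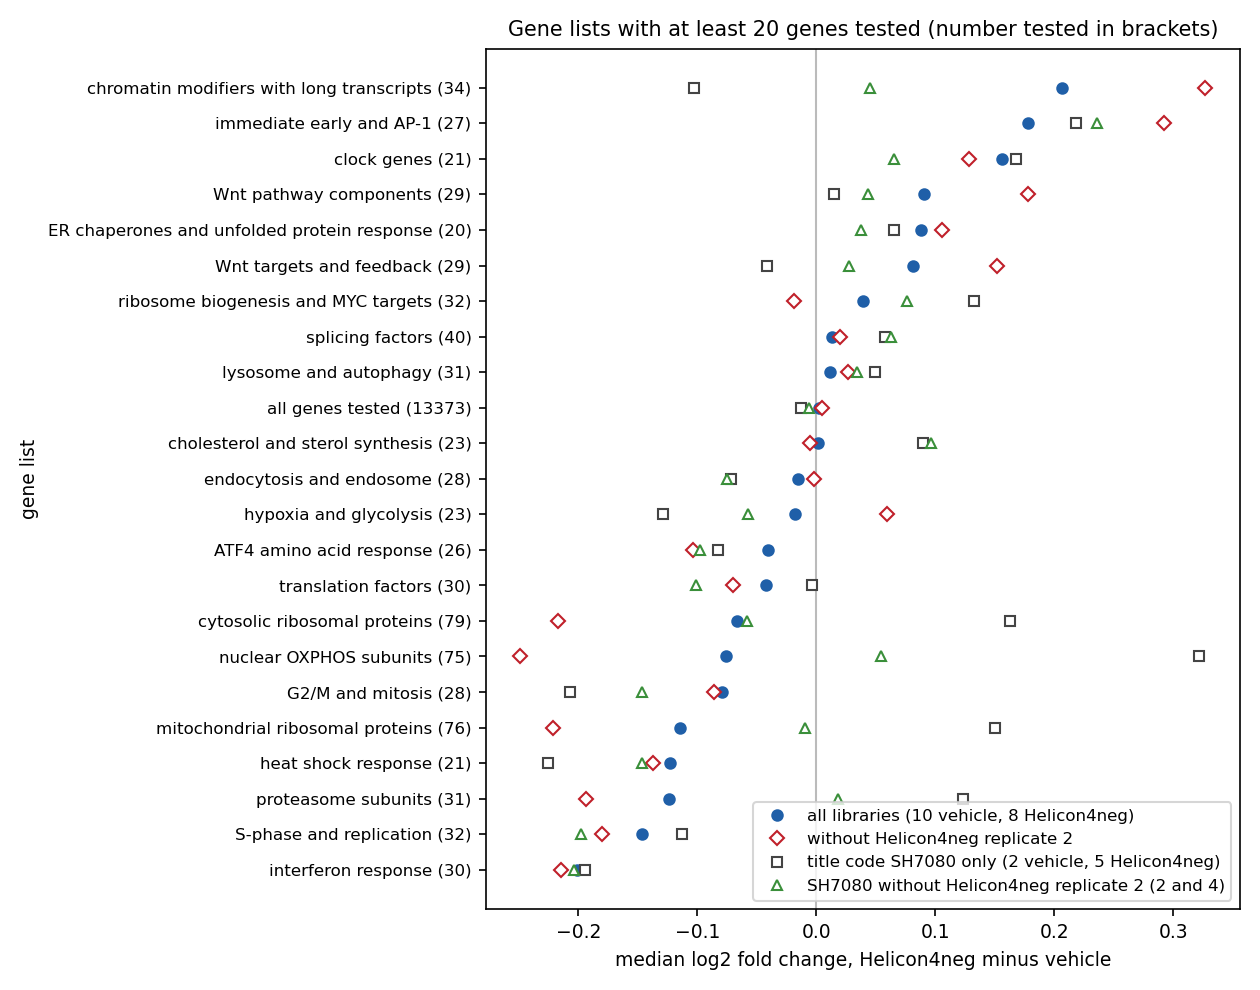
Median log2 difference (Helicon4neg minus vehicle) of each gene list with at least 20 genes tested and of all genes tested, for 4 sets of libraries shown by the symbols. The medians of the ribosomal, oxidative phosphorylation, proteasome and chromatin modifier lists lie far apart between the sets, while those of the immediate early, heat shock, S-phase and interferon lists keep their side of 0 in all 4.

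**Figure D5:**
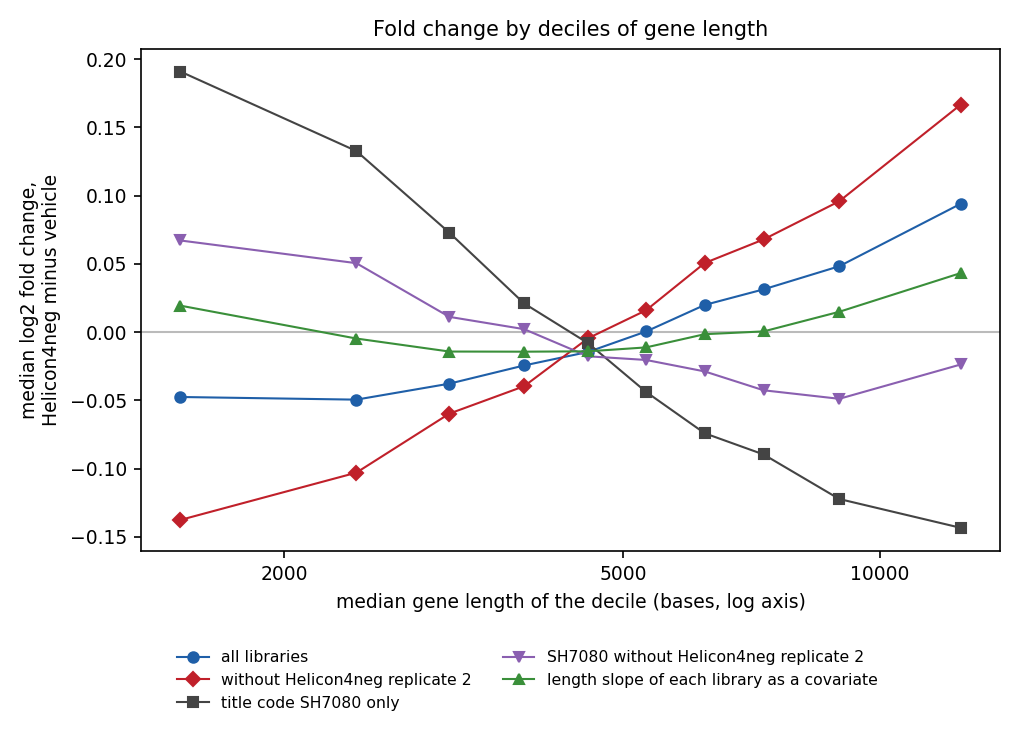
Median log2 difference (Helicon4neg minus vehicle) in each decile of gene length against the decile's median length on a log axis, for 5 settings shown by the lines. Without replicate 2 the line runs from -0.14 to 0.17, within title code SH7080 it slopes the other way, and with the length slope as a covariate it stays between -0.01 and 0.04.

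Markers of other cell types gave 2 calls. COL5A1, a fibrillar collagen chain, was at 6.6 to 9.69 CPM in vehicle (median 7.10) and 9.11 to 15.3 CPM in Helicon4neg (median 10.8), and rose by 0.49 ± 0.11 (limma adjusted p = 0.0064), the only 1 of 13 fibroblast and matrix markers to pass, against 3 without replicate 2 (9.77% of all genes called higher); the call was lost with the host-type covariate, of which it is part (0.0743). ENG, which encodes the endothelial co-receptor endoglin, was at 1.74 to 3.78 CPM in vehicle and 1.3 to 2.76 CPM in Helicon4neg, and differed by -0.42 ± 0.11 (limma adjusted p = 0.018; 0.0544 without Helicon4neg 8). Within SH7080 ENG differed by -0.27, and by -0.21 without replicate 2 (limma adjusted p = 0.41). It was 1 of 5 endothelial markers with a row, of which 3 had a difference above 0. The median of the 5 was 0.02, and 0.22 within SH7080. CDH5, PECAM1, VWF and 5 other endothelial markers had no row. Their part in the results above was not tested beyond the covariate.

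A last set of named genes passed narrowly. AMER1, a membrane anchor of APC, differed by 0.47 (limma adjusted p = 0.023) and lost its call without Helicon4neg 3 (0.0557) or 8 (0.0589). DVL3, a Dishevelled, differed by 0.26 (0.020; 0.0636 without Helicon4neg 4), and CTNNBIP1, an inhibitor of β-catenin binding to TCF, by 0.30 (0.031), lost without Helicon4neg 1, 4 or 8 or vehicle 1 or 9 (0.0536 to 0.0671). These were the 3 of 29 Wnt pathway components that were called, all higher, beside 2.21% of all genes called higher and 2.62% lower. The counts without replicate 2 were 5 higher and 0 lower, beside 9.77% and 9.64%. The median of the list was 0.09, or 0.18 without replicate 2. It was 0.01 within SH7080, and 0.04 there without replicate 2. GAA, the lysosomal glucosidase (0.33), lost its call without Helicon4neg 3 or 4 (limma adjusted p of 0.0597 and 0.0709), PLK2, a p53 target (0.45), without Helicon4neg 4, 7 or 8 (0.0524 to 0.0560), and HNRNPC, a splicing factor (-0.26), without Helicon4neg 3, 4 or 8 (0.0561 to 0.0637). TNFAIP2, an NF-κB target (0.34), lost it without Helicon4neg 1, 4 or 6 or vehicle 1, 5, 6 or 7 (0.0544 to 0.0820). SAMD9, an interferon-responsive gene (-0.59), lost it without Helicon4neg 1, 4 or 7 or vehicle 1, 5, 7, 9 or 10 (0.0520 to 0.0837). HMMR (-0.56; -0.92 within SH7080) lost it without Helicon4neg 1, 3, 4 or 5 or vehicle 1, 2, 3, 5, 6, 7, 9 or 10 (0.05002 to 0.0814). IFIT1 (-0.47) lost it in 14 such fits, kept only without Helicon4neg 2 or 5 or vehicle 1 or 4 (0.0572 to 0.111). Of the histone genes, HIST1H2BD (-0.28) lost it without Helicon4neg 1, 3, 4, 5, 7 or 8 or vehicle 4, 5, 6 or 8 (0.0517 to 0.0945), and HIST2H3D (0.46), one of several near-identical copies, lost it in 13 fits, kept only without Helicon4neg 1, 2 or 5 or vehicle 4 or 10 (0.0532 to 0.130). FDPS, of sterol synthesis, (-0.28) and MYBBP1A, a nucleolar protein, (0.39) kept theirs when any 1 library was left out, but FDPS differed by -0.04 within SH7080. Beyond the losses given beside each gene, the host-type covariate ended the calls of EP400, MAOA, INHBE, MRPL53, PSMD14, MYBBP1A, JUN, AMER1, DVL3, CTNNBIP1, GAA, PLK2, HNRNPC, TNFAIP2, HMMR, HIST1H2BD and HIST2H3D (limma adjusted p of 0.0506 to 0.193). A fit of only the compared groups ended those of CDX2, HLF, INHBE, EP400, HERPUD1, FDPS, PSMD14, ENG, DNAJA1, HSPD1, JUN, CTGF, AMER1, DVL3, CTNNBIP1, PLK2, HNRNPC, TNFAIP2, HMMR, HIST1H2BD and HIST2H3D (0.0503 to 0.104). TMM factors ended those of CDX2, DNAJA1, HSPD1, FDPS, PSMD14, CTNNBIP1, GAA, HNRNPC, TNFAIP2, IFIT1, HIST1H2BD and HIST2H3D (0.0517 to 0.144). A replicate block ended those of CDX2, HLF, MYBBP1A, HSPD1, CTGF, NOTUM and SAMD9. It also ended those of CTNNBIP1, GAA, TNFAIP2, HMMR, IFIT1 and HIST1H2BD (limma adjusted p of 0.0504 to 0.135 over the 13).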

How the data were processed

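PolyA RNA of tumors was sequenced in 29 libraries of 4 groups, grouped by their labels; the protocols name 2 stranded kits, so the kit is unclear. Per the submitters' processing notes the tools included Trimmomatic 0.39, STAR 2.7.7a, featureCounts of Subread 2.4.2 and edgeR 4.0.2 with GRCh38; the gene annotation, strand setting and any mouse genome are not given in the sources used here. The deposited signal is 1 value per gene and library, gene counts that the authors divided by a scaled library size (column sums of 0.9208 to 1.2626 M). Whole reads were recovered within 0.05 reads for 100% of values in each library, and library depth counts these reads.

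Genes reaching 1 CPM in 5 or more libraries were tested with limma 3.58.1 (R 4.3.3; trend and robust fitting) on log2(CPM + 1), all groups in 1 fit, two-sided, with Benjamini-Hochberg adjustment over all 13373 genes and a threshold of 0.05. A fold on this scale understates changes of low genes. Measures of whole libraries went through exact permutation tests. The script was tested on simulated data. Symbols were matched to GENCODE 29 by identifier (13479 of 13492), lengths are those of the deposited table, and promoters came from RefSeq GRCh38.p14.

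The members and gene lists were chosen with earlier results of these data known. Named genes are the core Wnt genes, the 12 largest rises and falls among called genes with a mean of at least 5 CPM, the 6 smallest adjusted p values in each direction, up to 3 called members of each list, and at most 6 in each direction by the same rules without Helicon4neg replicate 2. Beyond these 81 genes, 14 were named after their values were seen. Alternatives were a pseudocount of 0.1, no filter or a filter of 5 CPM, TMM factors, plain limma, only the compared groups, replicate number or title code as a block, title code SH7080 alone, covariates (host-type markers, meaning the mean log2 level of fibroblast, endothelial and leukocyte markers; length slope; ribosomal protein share), library weights, each library left out, and edgeR 4.0.16 and DESeq2 1.42.0 on recovered reads. The fits combining the removal of replicate 2 with the length slope, title code or SH7080, and the block fits of Helicon4 against Helicon4neg, were chosen after seeing the data. Same-numbered libraries did not vary together (residual correlations of -0.701 to 0.399 over 8 pairs, 4 above 0.1).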

Additional observations from a re-analysis of the deposited data

Results flagged for a closer look

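A library is listed here where its gap to the nearest other library of its group is large for the group's range (Dixon's test at 95%), which chance gives in about 1 of 20 groups; 32 of 208 groups of values met it. The groups are not independent of each other, and some genes were named from the fit without Helicon4neg replicate 2, so the 32 are not a test against that share. Of the 32, 22 were values of Helicon4neg replicate 2, already known to stand apart in ribosomal protein share and length slope. It was the highest of the 8 Helicon4neg libraries for ASCL2 (138 CPM), CIRBP (563 CPM), CTNNBIP1 (35.5 CPM), HIST1H2BD (3.41 CPM), JUND (355 CPM), LMAN2L (66.5 CPM), PIR (41.6 CPM), PSPH (35.02 CPM), STYXL1 (20.9 CPM) and TNFAIP2 (16.04 CPM). It was the lowest for CCND1 (9.02 CPM), HLF (5.097 CPM), HMMR (8.84 CPM), LEF1 (183 CPM), LRP11 (8.23 CPM), PER3 (6.55 CPM) and ZNRF3 (63.1 CPM). Its ribosomal protein share of 20.6% and mean log2 endothelial marker level of 3.25 were the highest of the group. Its length slope of -0.321 and its mean log2 levels of fibroblast and matrix markers (3.4) and of leukocyte markers (2.25) were the lowest.

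Vehicle replicate 4 was the highest vehicle library for DDIT3 (63.03 CPM), DUSP1 (15.1 CPM), FOS (16.5 CPM), JUN (176 CPM) and SDCBP2 (7.93 CPM), 3 of them immediate early genes that rose with Helicon4neg. Other vehicle libraries stood apart in 1 gene each, replicate 1 in HLF (7.53 CPM), replicate 9 in INHBE (24.3 CPM) and replicate 10 in MAOA (223 CPM), all as the highest. Among the other Helicon4neg libraries, replicate 1 was highest for CTGF (5.85 CPM) and replicate 4 for DNM2 (146 CPM).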

How the results depend on the processing

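The 647 calls became 1105 with DESeq2, 3897 with library weights, 2383 with the length slope and 1655 with the ribosomal protein share as a covariate, 2031 without Helicon4neg replicate 2 and vehicle replicate 6, 374 in a fit of only the compared groups, 326 with the host-type covariate, 2 when title code was a block and 0 within SH7080 (1064 at an unadjusted p under 0.05). Leaving out 1 library gave 393 (without Helicon4neg 4) to 2595 (without Helicon4neg 2). The 2595 became 716 within SH7080 and 1 when title code was a block. For Helicon4 against Helicon4neg 2018 calls became 184 when title code was a block. All other settings kept these counts within 1.5 times. With the replicate number as a block 466 genes passed in place of 647 and, for Helicon4, 1605 in place of 2018; the numbers are not shown to pair the libraries. Of the 82 named calls, title code as a block ended 80, the host-type covariate 30, only the compared groups 21, the replicate block 13 and TMM 12. None of these 82 changed sign in the settings run; of all 647 called genes 640 kept their sign within SH7080, whose libraries are part of the main comparison.

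Among the named genes, sign changes were limited to those that did not pass. DKK1 was -0.0312 with the host-type covariate, -0.0307 with the length slope, -0.0097 with the ribosomal share and -0.23 within SH7080 and with title code as a block. LGR5 was -0.0564, -0.0625, -0.0291 and -0.39 in the same settings. ZNRF3 was -0.0034 within SH7080 and with title code as a block. Library weights gave -0.0113 for ASCL2 and 0.0106 for LEF1, and the replicate block 0.0145 for CCND1 and 0.13 for DKK4. With 1 library left out, or Helicon4neg 2 and vehicle 6 together, differences ran from -0.0802 to 0.19 for ASCL2, -0.13 to 0.0221 for CCND1, -0.0599 to 0.20 for DKK1, -0.11 to 0.16 for DKK4, -0.0721 to 0.0344 for LEF1, -0.0512 to 0.14 for LGR5 and -0.0922 to 0.0276 for TCF7. For Helicon4 against Helicon4neg, title code as a block gave 0.22 for COL5A1 and -0.0217 for FDPS, and leaving out Helicon4neg 2 gave -0.0287 for LEF1 and -0.0465 for POTEG. Genes near 1 CPM, such as KLF4, LGR5 and HIST2H3D, are limited most by depth.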
